A study of Rattus norvegicus with 8 samples.

Results

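Entry into mitosis, chromosome segregation and cell division draw on a set of genes that cycling cells switch on shortly before they divide. A list of 54 rat gene symbols for mitotic kinases, spindle and kinetochore proteins, kinesins, condensin subunits and cytokinesis proteins was followed here in liver before and after partial hepatectomy (PHx). Cyclins and Cdk1 were left off the list. The array carried a probe set annotated with the symbol alone for 48 of the 54, out of 18166 genes named in that way, and each of the 48 had 1 such probe set. The 6 symbols without one were Nek2, Birc5, Cenpe, Anln, Shcbp1 and Ncaph, and the only probe set naming Nek2 also names Nek2l1.

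In the adult liver most hepatocytes are quiescent and make little mRNA for mitotic proteins. After surgical loss of liver mass the remaining hepatocytes re-enter the cell cycle together, replicate their DNA and then pass through mitosis. Plk1 and the Aurora kinases drive mitotic entry and spindle assembly. The kinetochore ties each chromosome to spindle microtubules, the spindle checkpoint holds the cell until all chromosomes are attached, separase then frees the sister chromatids, and the central spindle directs cleavage of the cell.

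The 8 samples were liver of male Sprague-Dawley rats, which had either eaten an ethanol diet for a long period or been pair-fed a control diet with carbohydrate in its place. Within each diet, animals were either untreated or injected intraperitoneally with AM21, an antisense oligonucleotide containing locked nucleic acid (LNA) that targets the microRNA miR-21, at 7.5 mg/kg in saline. The first injection was given 72 h before removal of 70% of the liver and the second right after it. Tissue was frozen at the operation (0 h) and 24 h later, and each of the 8 combinations of diet, treatment and time was measured once, as a pool of RNA from 4 untreated or 3 AM21 animals. The labels list the same animals at both times, which gives 4 pools each measured before and after PHx. Pooling leaves the spread between animals unmeasured. Every p-value and SE below rests on the scatter between pools and on variance that limma shares over genes. The 4 pools are not replicates, because each had its own diet and treatment. For the change after PHx, that scatter holds any difference in change by diet or AM21. For the other comparisons it is the departure from diet and AM21 effects that add. For the differences in change between diets or treatments the variance shared over genes dominates, with 1 residual degree of freedom against 6.76 from the prior. The AM21 and untreated animals carry separate ranges of identifiers, so treatment and cohort cannot be told apart. Neither sham-operated animals nor a control oligonucleotide were analysed here, so PHx cannot be told apart from other effects of the operation and of the time after it. The tissue label was checked with hepatocyte genes: albumin (Alb) read 12.29 to 12.42 log2 units on the 8 arrays, and limma called 0 of 10 hepatocyte markers changed after PHx, with 2 at an unadjusted p under 0.05. Of all genes, limma called 5.65% higher and 4.43% lower, and 12.4% and 11.9% at an unadjusted p under 0.05.

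At 0 h most of the mitosis genes lay within the upper range of genes that liver does not use. On each array the 95th percentile of 68 olfactory receptor genes, 4.64 to 5.18 log2 units, served as a guide to what an unexpressed gene reads, because the deposited values carry no detection call; the median of those receptor genes was 2.70 to 3.07. At 0 h, 2 of the 48 mitosis genes lay above it in the pair-fed untreated pool, 4 in the pair-fed AM21 pool, 18 in the ethanol-fed untreated pool and 12 in the ethanol-fed AM21 pool. At 24 h all 48 lay above it in 3 of the pools, and 47 did so in the ethanol-fed untreated pool, where Depdc1 did not. In the same order of pools, the median level over the 48 genes was 4.14, 3.97, 4.59 and 4.41 at 0 h, and 6.78, 7.68, 6.26 and 6.56 at 24 h. For 30 of the 48, Ect2, Cenpn and Kif15 among them, no array at 0 h lay above the percentile, so a rise is measured from a value not above background. It can understate the true change, and the order of the rises is that of the measured values. The levels of bulk tissue cannot tell more cells in mitosis from more RNA per cell.

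**Figure D1:**
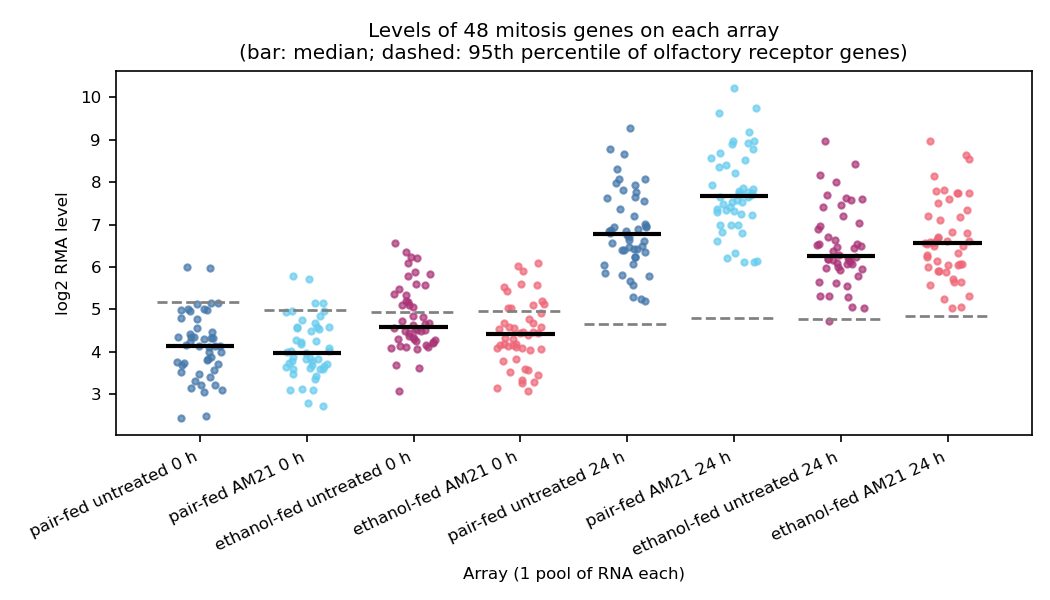
Level of each of the 48 mitosis genes (points, log2 RMA units) on each of the 8 arrays, with the median as a black bar and the 95th percentile of olfactory receptor genes as a dashed line. The medians lay between 3.97 and 4.59 at 0 h and between 6.26 and 7.68 at 24 h, with the pair-fed AM21 pool lowest at 0 h and highest at 24 h.

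All 48 genes rose after PHx. Limma, with each pool as its own control, called 48 of 48 higher at an adjusted p under 0.05, against 5.65% of the 18166 genes called higher and 4.43% called lower. The list was chosen with earlier results of these data known, so the shares are set side by side as a description. The fitted rise ran from 1.39 log2 units for Cenpn to 3.91 for Top2a, with a median of 2.56 (5.89-fold), while the median over all genes was -0.02. Adjusted p-values lay between 0.00117 for Cenpk and 0.0182 for Cenpn. All 48 rises exceeded 2-fold, 39 exceeded 4-fold and 11 exceeded 8-fold. For every one of the 48, the lowest of the 4 arrays at 24 h stood above the highest at 0 h, as it did for 10.0% of all genes; the reverse held for 0 of the 48 and for 8.15% of all genes. That gap was narrowest for Cenpn at 0.58 log2 units and widest for Ect2 at 2.46. A rise of at least 1 log2 unit in each of the 4 pools was seen for 46 of the 48, all but Cenpn and Aspm, and for 1.14% of all genes. With 1 pool left out at a time, 47 or 48 genes passed the test. The exception was Cenpn, which rose by 1.26 (adjusted p = 0.0954) without the pair-fed untreated pool and by 1.10 (adjusted p = 0.0573) without the pair-fed AM21 pool; over its alternatives the adjusted p ran from 0.00762 to 0.0954. Over all genes, 1831 were called in either direction with 4 pools, and 881 to 1143 with 3.

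**Figure D2:**
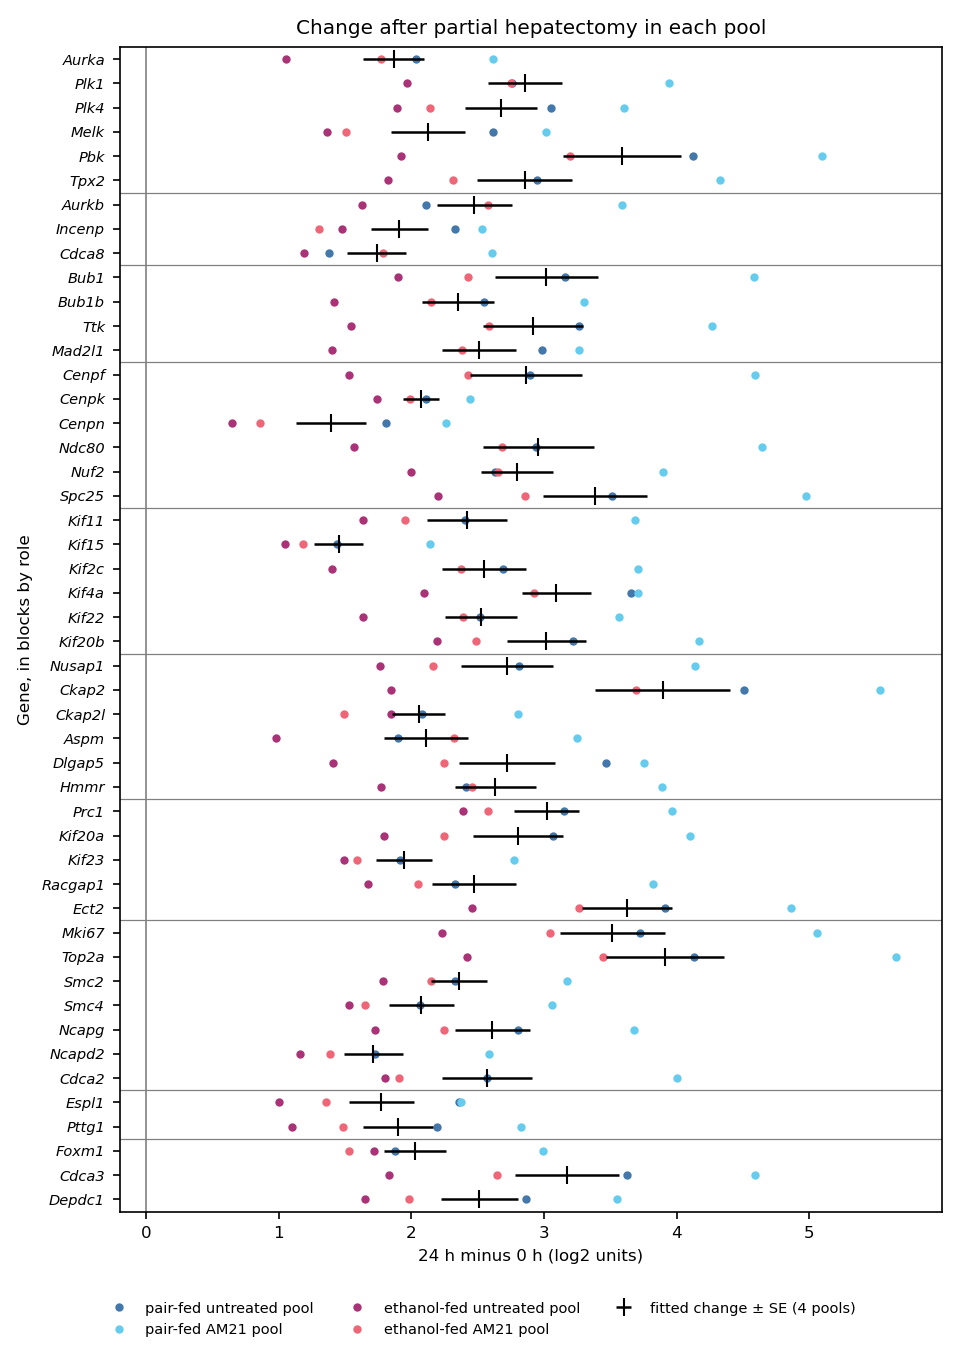
Change in level from 0 h to 24 h (log2 units) for each mitosis gene in each of the 4 pools (coloured points), with the fitted change ± SE (black), in blocks by role. Every point lies to the right of 0, and for 43 of the 48 genes both pair-fed points lie to the right of both ethanol-fed points.

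Promoter sequence, which played no part in the choice of genes, was available from RefSeq (GRCr8) for 41 of the 48; Pbk, Tpx2, Aurkb, Incenp, Racgap1, Cdca2 and Foxm1 were not matched. The 250 bases before each annotated start were searched on both strands for CCAAT, the core of the NF-Y binding site, and for TTTGAA, a form of the cell cycle homology region (CHR) found in promoters of late cell cycle genes. CCAAT occurred in 29 of the 41 (70.7%) and in 36.1% of 27457 rat genes with a promoter in the same table. TTTGAA occurred in 19 of the 41 (46.3%) and in 17.2% of all genes, and both motifs together in 18 (43.9%) and 6.32%. Counting TTTAAA and TTCGAA as CHR forms too, 29 of 41 (70.7%) held at least 1 form, against 28.0% of all genes. These are matches of letters within a window, not binding sites. The promoters of the 4 genes with the largest rises among those holding both motifs are shown, 5′ to 3′ on the gene's strand and ending at the base before the start, with CCAAT (or ATTGG, its reverse complement) and TTTGAA (or TTCAAA) in capitals.
Top2a: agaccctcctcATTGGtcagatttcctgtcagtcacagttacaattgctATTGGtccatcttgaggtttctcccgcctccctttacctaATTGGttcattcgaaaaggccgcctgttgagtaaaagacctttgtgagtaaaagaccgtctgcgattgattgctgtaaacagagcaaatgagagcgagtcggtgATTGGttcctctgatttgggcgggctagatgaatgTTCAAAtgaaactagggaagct
Ckap2: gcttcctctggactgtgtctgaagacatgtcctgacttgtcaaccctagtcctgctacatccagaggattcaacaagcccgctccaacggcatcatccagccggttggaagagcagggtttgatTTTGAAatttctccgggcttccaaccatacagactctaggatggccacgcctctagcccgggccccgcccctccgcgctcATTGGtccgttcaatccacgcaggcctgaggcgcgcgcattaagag
Ect2: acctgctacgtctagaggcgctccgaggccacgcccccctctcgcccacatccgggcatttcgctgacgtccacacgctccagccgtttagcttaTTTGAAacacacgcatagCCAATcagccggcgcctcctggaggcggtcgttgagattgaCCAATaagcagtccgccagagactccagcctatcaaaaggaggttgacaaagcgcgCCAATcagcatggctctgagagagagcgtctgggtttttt
Mki67: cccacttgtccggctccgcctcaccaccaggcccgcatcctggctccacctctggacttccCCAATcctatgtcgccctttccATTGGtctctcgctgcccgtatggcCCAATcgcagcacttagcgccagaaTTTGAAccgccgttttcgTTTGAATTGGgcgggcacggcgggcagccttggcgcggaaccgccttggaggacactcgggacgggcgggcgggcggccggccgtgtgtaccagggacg
The Top2a sequence is chr10:84473094-84473343 on the minus strand, with CCAAT beginning 239, 201, 161 and 57 bases before the start and TTTGAA 22 bases before it. The Ckap2 sequence, chr16:76541864-76542113 on the plus strand, has 1 of each motif, TTTGAA at 126 and CCAAT at 46. The Ect2 sequence, chr2:111966627-111966876 on the minus strand, has TTTGAA at 155 and CCAAT at 137, 96 and 40. The Mki67 sequence, chr1:199952594-199952843 on the minus strand, has 4 CCAAT and 2 TTTGAA matches, and the TTTGAA at 99 shares bases with the CCAAT match at 94. The 4 sequences thus differ in the number, the order and the spacing of the motifs.

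In what follows, the values of a gene on the 4 arrays of a time are log2 levels that give the pair-fed pools first and the ethanol-fed pools after them, with untreated before AM21 in each diet, and a rise is the fitted change in log2 units ± its SE over the 4 pools. Among the 6 mitotic kinases and partners with a probe set, all 6 rose, with a median of 2.76. Plk1, the kinase that acts in centrosome maturation, spindle assembly and cytokinesis, read 5.01, 4.74, 5.49 and 5.04 at 0 h and 7.77, 8.68, 7.46 and 7.79 at 24 h. Every pool rose for Plk1, and the pair-fed AM21 pool went from the lowest level to the highest. The fitted rise was 2.86 ± 0.28 (adjusted p = 0.00202). Aurka, the centrosomal Aurora kinase, read 4.99, 5.14, 5.59 and 4.92 at 0 h and 7.02, 7.75, 6.64 and 6.69 at 24 h. Its rise was 1.87 ± 0.23 (adjusted p = 0.00381), the smallest of the 6. Tpx2, the microtubule protein that activates Aurora A, started at 5.12, 4.57, 5.87 and 5.43 and reached 8.07, 8.90, 7.70 and 7.75, a rise of 2.85 ± 0.36 (adjusted p = 0.00413). Pbk, a mitotic kinase of the MAP kinase kinase family, showed the largest rise of the group at 3.58 ± 0.44 (adjusted p = 0.00381). The other two were Plk4, which controls centriole duplication, at 2.67 ± 0.27 and Melk, a kinase made mainly by dividing cells, at 2.12 ± 0.28.

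Of the chromosomal passenger complex, which corrects faulty attachments at the centromere, 3 members were measured and all 3 rose, with a median of 1.91. Aurkb, its kinase, read 4.12, 3.66, 4.15 and 3.33 at 0 h and 6.23, 7.25, 5.78 and 5.91 at 24 h. Its 0 h values overlapped between the diets, and the rise was 2.47 ± 0.28 (adjusted p = 0.0031). Incenp, the scaffold, rose by 1.91 ± 0.22 and Cdca8 (borealin) by 1.74 ± 0.22. Birc5 (survivin), the remaining subunit, is among the 6 symbols without a probe set.

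The 4 spindle checkpoint genes rose with a median of 2.71. Bub1b, part of the complex that inhibits the anaphase promoting complex, read 3.31, 3.68, 4.14 and 3.56 at 0 h and 5.86, 6.98, 5.56 and 5.71 at 24 h. Mad2l1, its partner in that complex, read 4.57, 4.95, 5.80 and 5.12 at 0 h and 7.56, 8.22, 7.20 and 7.50 at 24 h. For both, the pair-fed AM21 pool was highest at 24 h and the ethanol-fed untreated pool was highest at 0 h. Bub1b rose by 2.35 ± 0.27 (adjusted p = 0.00308) and Mad2l1 by 2.51 ± 0.28 (adjusted p = 0.00295). The kinases that start checkpoint signalling at the kinetochore rose too, Bub1 by 3.02 ± 0.39 and Ttk by 2.92 ± 0.38.

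The 6 kinetochore and centromere genes held both large and small rises, with a median of 2.83. Ndc80, Nuf2 and Spc25 encode subunits of the Ndc80 complex, which binds microtubules. Ndc80 read 4.42, 3.71, 5.33 and 4.52 at 0 h and 7.36, 8.36, 6.90 and 7.20 at 24 h, a rise of 2.96 ± 0.42 (adjusted p = 0.00609). Spc25 rose by 3.38 ± 0.39 and Nuf2 by 2.79 ± 0.27. Cenpf, a large coiled-coil protein of the outer kinetochore, read 4.30, 3.82, 5.17 and 4.69 at 0 h and 7.19, 8.41, 6.70 and 7.11 at 24 h, a rise of 2.86 ± 0.42 (adjusted p = 0.00718). Cenpk and Cenpn belong to the inner network of proteins at centromeres. Cenpn read 3.99, 3.85, 4.38 and 4.45 at 0 h and 5.80, 6.11, 5.02 and 5.30 at 24 h, the smallest measured rise of the 48 at 1.39 ± 0.26 (adjusted p = 0.0182). Its change was 1.81, 2.26, 0.65 and 0.86 in the 4 pools, under 1 log2 unit in both ethanol-fed pools. Cenpk had the smallest adjusted p of the 48, with a rise of 2.07 ± 0.13 (adjusted p = 0.00117) and changes of 2.11, 2.44, 1.74 and 1.99, the 4 pools lying close together.

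The 6 kinesins of the spindle, motors that slide, depolymerise or carry along microtubules, rose with a median of 2.54. Kif11, which pushes the spindle poles apart, read 4.22, 4.01, 4.56 and 4.67 at 0 h and 6.62, 7.70, 6.19 and 6.62 at 24 h, a rise of 2.42 ± 0.30 (adjusted p = 0.00407). Kif2c, a microtubule depolymerase at the centromere, read 3.09, 3.10, 4.21 and 3.27 at 0 h and 5.79, 6.81, 5.61 and 5.65 at 24 h, a rise of 2.55 ± 0.32 (adjusted p = 0.004). For both, the pair-fed AM21 array stood apart above the other 3 at 24 h. Kif15, which backs up Kif11, read 3.75, 4.01, 4.26 and 4.05 at 0 h and 5.19, 6.15, 5.31 and 5.23 at 24 h, and its rise of 1.45 ± 0.18 (adjusted p = 0.00413) was the second smallest as measured. The chromosome-bound kinesins Kif4a and Kif22 rose by 3.09 ± 0.26 and 2.52 ± 0.27, and Kif20b, which acts in the last step of cytokinesis, by 3.02 ± 0.30.

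Microtubule-associated proteins of the spindle, 6 genes with a median rise of 2.68, included the member with the second largest rise. Ckap2, a spindle protein that promotes microtubule growth, read 3.47, 3.64, 5.56 and 4.13 at 0 h and 7.98, 9.17, 7.41 and 7.83 at 24 h. At 0 h its ethanol-fed untreated array stood apart from the other 3, and at 24 h the pair-fed AM21 array was highest. Ckap2 rose by 3.89 ± 0.51 (adjusted p = 0.00456). Nusap1, which bundles microtubules around chromosomes, read 5.00, 4.83, 5.84 and 5.57 at 0 h and 7.81, 8.97, 7.61 and 7.73 at 24 h, a rise of 2.72 ± 0.35 (adjusted p = 0.00422). Dlgap5, which stabilises kinetochore fibres, rose by 2.72 ± 0.36, Hmmr, a spindle assembly factor, by 2.63 ± 0.30, and Aspm, a spindle pole protein, by 2.11 ± 0.32. Ckap2l, the relative of Ckap2, rose by 2.05 ± 0.20, the smallest of the group.

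The 5 cytokinesis genes rose with a median of 2.80. Prc1, which crosslinks antiparallel microtubules of the central spindle, read 4.80, 4.96, 5.20 and 5.02 at 0 h and 7.94, 8.92, 7.59 and 7.59 at 24 h. The 4 values at 0 h lay close together and well below all 4 at 24 h, for a rise of 3.02 ± 0.25 (adjusted p = 0.00176). Kif23, the motor of the centralspindlin complex, read 4.13, 4.55, 4.51 and 4.45 at 0 h and 6.04, 7.32, 6.00 and 6.04 at 24 h, a rise of 1.94 ± 0.21 (adjusted p = 0.0027). Its partner Racgap1 rose by 2.47 ± 0.32, and Kif20a, which carries the passenger complex to the central spindle, by 2.80 ± 0.34. Ect2, a guanine nucleotide exchange factor that acts at the cleavage furrow, read 2.48, 2.72, 3.61 and 3.29 at 0 h and 6.39, 7.59, 6.07 and 6.55 at 24 h. All 4 arrays at 0 h lay far below all 4 at 24 h, and its rise of 3.62 ± 0.34 (adjusted p = 0.00198) was the third largest as measured, from 0 h values that were not above background.

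Chromosome structure was covered by 7 genes with a median rise of 2.57. Top2a, the topoisomerase that untangles sister chromatids, read 5.14, 4.58, 6.56 and 5.52 at 0 h and 9.27, 10.23, 8.97 and 8.96 at 24 h. Both the lowest 0 h value and the highest 24 h value came from the pair-fed AM21 pool. Its rise of 3.91 ± 0.45 (adjusted p = 0.00308), 15.0-fold, was the largest of the 48. Mki67, which encodes the proliferation marker Ki-67 on the surface of mitotic chromosomes, read 4.95, 4.58, 6.21 and 5.60 at 0 h and 8.67, 9.64, 8.44 and 8.64 at 24 h, a rise of 3.51 ± 0.40 (adjusted p = 0.00299) or 11.4-fold. Among condensin subunits, Ncapg read 4.14, 4.25, 4.82 and 4.47 at 0 h and 6.94, 7.93, 6.54 and 6.71 at 24 h, a rise of 2.61 ± 0.28 (adjusted p = 0.00274). Ncapd2 read 4.98, 4.95, 5.37 and 5.20 at 0 h and 6.71, 7.53, 6.53 and 6.58 at 24 h, and its rise of 1.71 ± 0.22 (adjusted p = 0.00441) was the third smallest of the 48. The core subunits Smc2 and Smc4, the only members above the olfactory receptor percentile on all 4 arrays at 0 h, rose by 2.36 ± 0.21 and 2.08 ± 0.24. Cdca2, which recruits a phosphatase to chromatin at mitotic exit, rose by 2.57 ± 0.34.

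Sister chromatid separation was represented by separase (Espl1) and its inhibitor securin (Pttg1), with a median rise of 1.84. Espl1 read 3.21, 4.23, 4.31 and 4.30 at 0 h and 5.57, 6.60, 5.31 and 5.65 at 24 h, a rise of 1.77 ± 0.24 (adjusted p = 0.00561). Its low 0 h value came from the pair-fed untreated pool, about 1 log2 unit under the other 3. Pttg1 read 4.77, 4.48, 5.10 and 5.09 at 0 h and 6.95, 7.30, 6.20 and 6.57 at 24 h, a rise of 1.90 ± 0.26 (adjusted p = 0.00571). For both, the ethanol-fed untreated array was the lowest at 24 h. Foxm1, a transcription factor that drives genes of late cell cycle, read 4.46, 4.67, 4.49 and 4.76 at 0 h and 6.34, 7.66, 6.21 and 6.29 at 24 h, a rise of 2.03 ± 0.23 (adjusted p = 0.00308). Its 0 h values lay close together, and the pair-fed AM21 array stood apart at 24 h. Cdca3, a cell cycle protein that takes part in the turnover of mitotic inhibitors, rose by 3.17 ± 0.40, and Depdc1, a protein of dividing cells, by 2.51 ± 0.29.

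**Figure D3:**
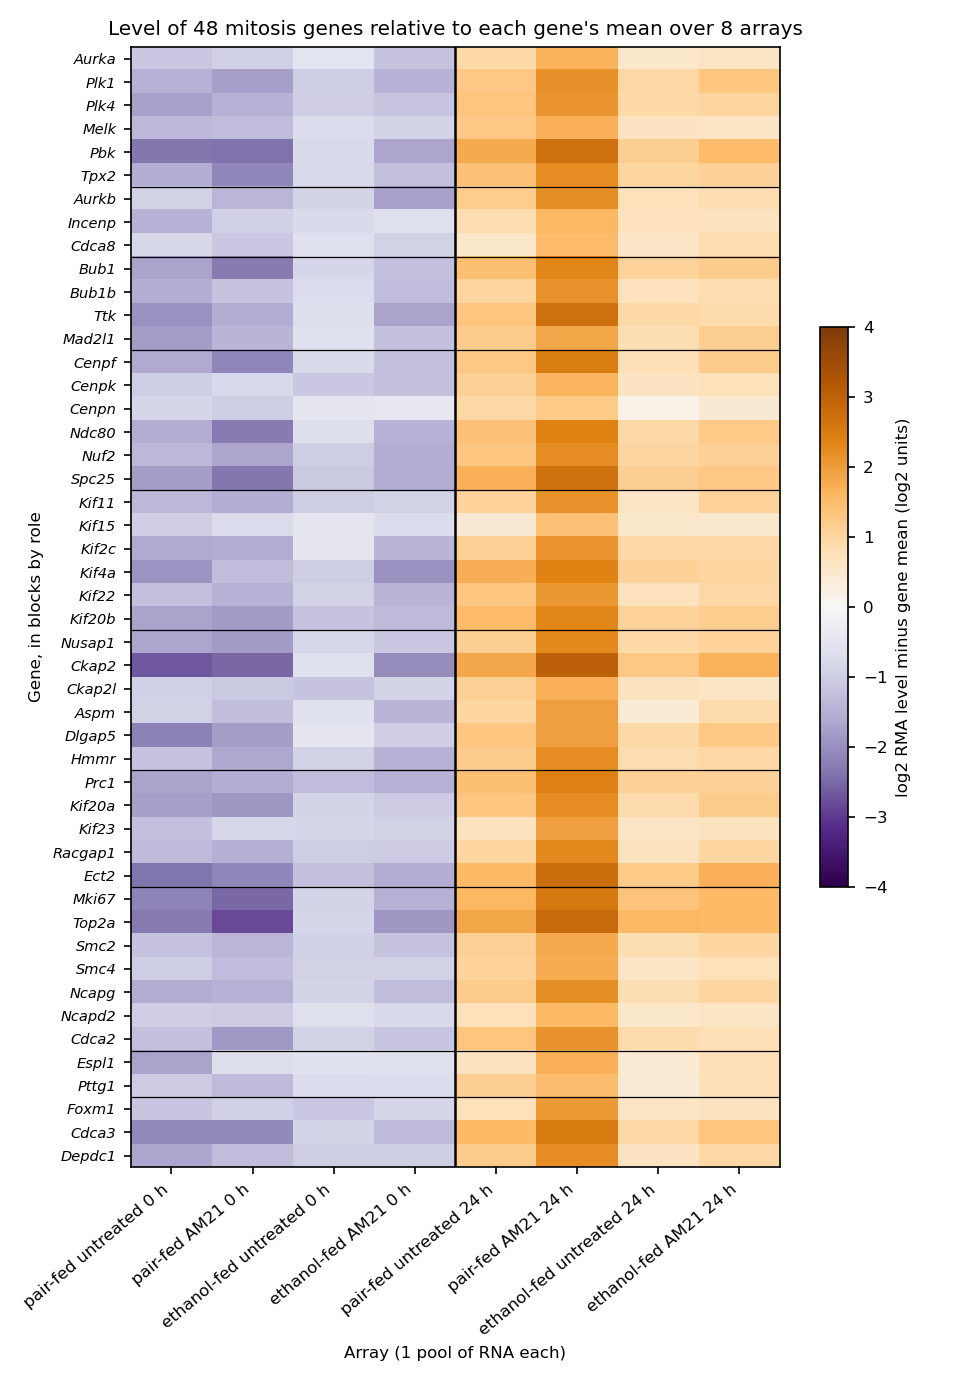
Level of each mitosis gene on each array, as the difference from that gene's mean over the 8 arrays (log2 units, purple below and orange above), in blocks by role, with 0 h arrays left of the black line. All 48 rows change from purple to orange at the line, and the pair-fed AM21 array is the deepest orange at 24 h in all 48.

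For most of the genes the change was smaller in the ethanol-fed pools than in the pair-fed pools, a difference that did not pass the adjusted test. The median change over the 48 genes was 2.66 in the pair-fed untreated pool, 3.70 in the pair-fed AM21 pool, 1.69 in the ethanol-fed untreated pool and 2.25 in the ethanol-fed AM21 pool. These correspond to 6.33-fold, 13.0-fold, 3.24-fold and 4.74-fold, while the median change over all genes lay between -0.02 and 0.01. For 43 of the 48, both pair-fed changes exceeded both ethanol-fed changes, an arrangement found for 17.7% of all genes; Aurkb, Cdca8, Nuf2, Aspm and Hmmr were the exceptions. The fitted difference in change, ethanol-fed minus pair-fed, was negative for all 48, from -2.25 to -0.41 with a median of -1.24. Limma called 0 of the 48 at an adjusted p under 0.05, and 0% of all 18166 genes. At an unadjusted p under 0.05 it called 46 of the 48 lower and 0 higher, against 4.27% and 3.28% of all genes. The 48 genes were read on the same pools and moved together. Such counts, here and below, are therefore not independent observations of diet or AM21.

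This call depended on the fit. When genes with a mean level of at least 5 were tested, 14 of the 39 mitosis genes kept were called as having a smaller change in the ethanol-fed pools (0.460% of genes tested). With a minimum mean of 4, 19 of 48 were called (0.427%), and with a prior variance that follows the mean level, 33 of 48 (1.03%). Both filters use the mean over all arrays, so genes dim at 0 h passed them through their 24 h arrays. The counts under the filters are therefore no check of the difference. In the other alternatives the count was 0. Without the pair-fed AM21 pool the median difference moved from -1.24 to -0.83; a fit of 3 pools can hold only 1 of the 2 factors, so it mixes diet with AM21.

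The 5 genes with the smallest p in that comparison were Pbk, Ckap2, Cdca3, Top2a and Ttk. Pbk changed by 4.12, 5.09, 1.92 and 3.20 in the 4 pools, a difference between diets of -2.05 ± 0.25 (adjusted p = 0.0778). Ckap2 changed by 4.51, 5.53, 1.84 and 3.70, a difference of -2.25 ± 0.28 (adjusted p = 0.0787). Both pair-fed changes lay above both ethanol-fed changes for these genes. For Cdca3 the changes were 3.63, 4.59, 1.83 and 2.64 and the difference -1.87 ± 0.24 (adjusted p = 0.0787). For Top2a they were 4.13, 5.65, 2.42 and 3.44, with a difference of -1.96 ± 0.26 (adjusted p = 0.0787). Ttk, the checkpoint kinase, changed by 3.26, 4.27, 1.55 and 2.59, with a difference of -1.70 ± 0.24 (adjusted p = 0.108). In each of the 5 genes the ethanol-fed untreated pool had the smallest change and the pair-fed AM21 pool the largest. With 1 pool left out, the difference ran from -3.18 to -1.32 for Ckap2 and from -2.72 to -1.20 for Top2a. Over the alternatives, the adjusted p for Pbk ran from 4e-05 to 0.9996.

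The difference in change was made up of a difference at each time. At 0 h the fitted difference, ethanol-fed minus pair-fed, was positive for 45 of 48, with a median of 0.49, and negative for Cenpk, Aurkb and Ckap2l. For 30 of the 48, no 0 h array lay above the olfactory receptor percentile, so many of these differences lie between readings not above background. Limma called 0 of 48 at 0 h (all genes: 0.00550% higher, 0.0110% lower), and at an unadjusted p under 0.05 it called 21 higher and 0 lower, against 5.82% and 4.50% of all genes. Both ethanol-fed arrays stood above both pair-fed arrays for 34 of the 48 (20.2% of all genes), and below them for Cenpk alone (19.2%). The largest 0 h differences were those of Ckap2 at 1.29 ± 0.37 (adjusted p = 0.327), Dlgap5 at 1.24 ± 0.24 (adjusted p = 0.196) and Top2a at 1.18 ± 0.26 (adjusted p = 0.227). Dlgap5 read 3.40, 3.78, 5.09 and 4.58 at 0 h and 6.86, 7.54, 6.50 and 6.83 at 24 h. Both of its ethanol-fed arrays stood above the pair-fed arrays at 0 h. Without either untreated array the median difference at 0 h was 0.31 and that of Ckap2 0.49, and without either AM21 array they were 0.65 and 2.09. With the prior that follows the mean level, 5 of 48 were called higher at 0 h (0.848% of genes).

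At 24 h the order of the diets was the opposite. The fitted difference, ethanol-fed minus pair-fed, was negative for all 48, from -1.11 to -0.30 with a median of -0.76. Limma called 0 of 48 (0% of all genes), and at an unadjusted p under 0.05 it called 40 lower and 0 higher, against 3.64% and 3.45%. Both pair-fed arrays stood above both ethanol-fed arrays for 43 of the 48 (18.4% of all genes); the exceptions were Plk1, Cdca8, Kif15, Ect2 and Espl1. Ttk differed by -1.11 ± 0.42 (adjusted p = 0.647), Kif4a by -1.03 ± 0.36 (adjusted p = 0.624) and Spc25 by -0.98 ± 0.21 (adjusted p = 0.405), the 3 largest differences of the 48. Spc25 read 4.11, 3.59, 4.84 and 4.32 at 0 h and 7.62, 8.56, 7.04 and 7.18 at 24 h. Its ethanol-fed arrays read above its pair-fed arrays before PHx and below them after it. None of its 0 h values lay above the olfactory receptor percentile, and limma called neither difference (adjusted p = 0.333 at 0 h). Without the pair-fed AM21 array, or without the ethanol-fed AM21 array, the median difference at 24 h was -0.39 and that of Ttk -0.40.

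**Figure D4:**
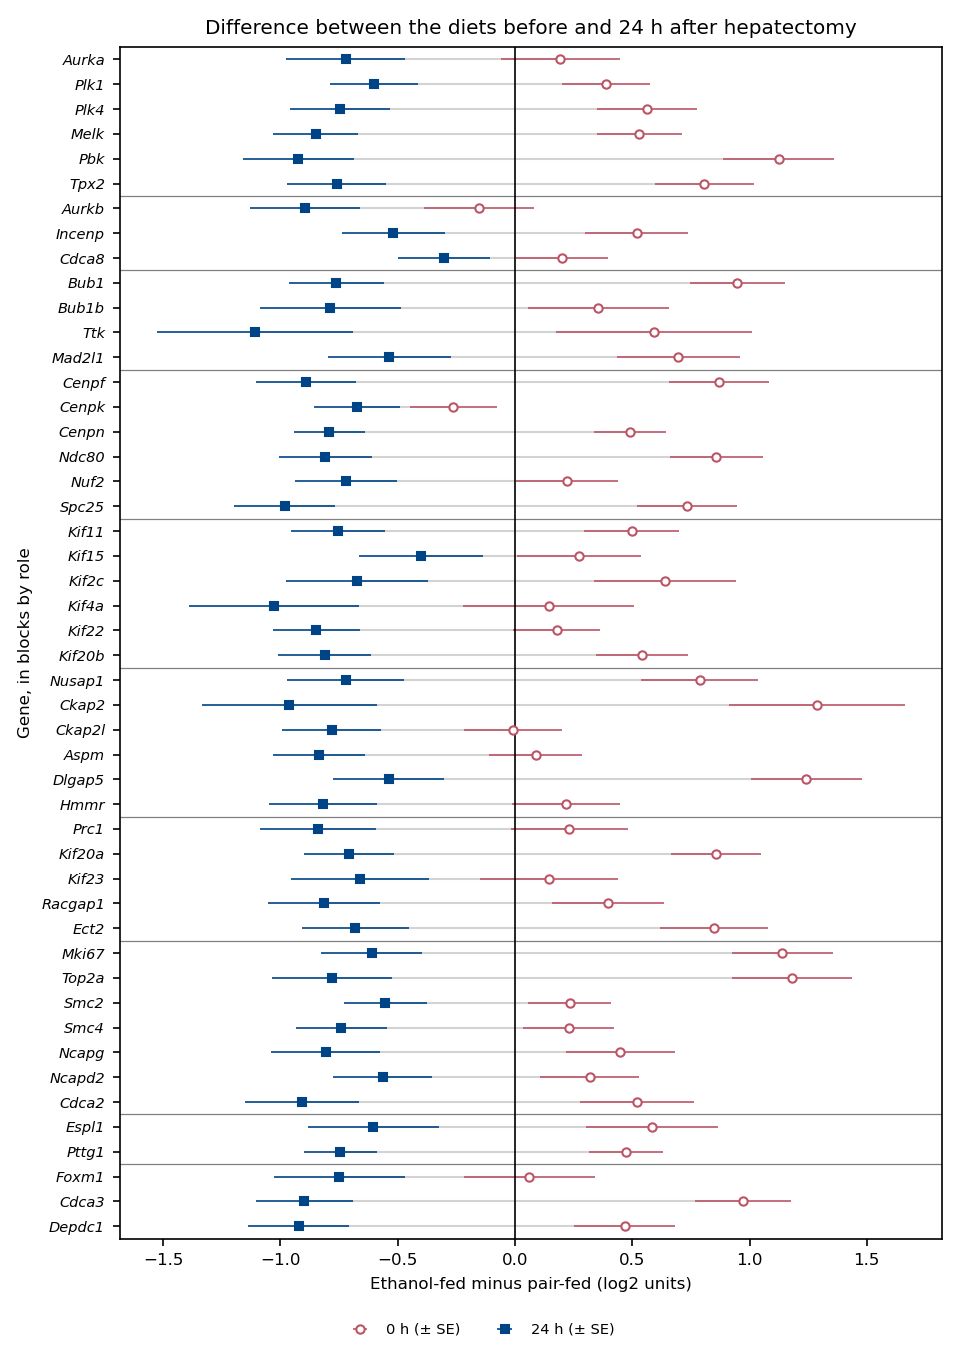
Fitted difference in level between diets, ethanol-fed minus pair-fed (log2 units, ± SE), for each mitosis gene at 0 h (open circles) and at 24 h (squares), in blocks by role. All 48 squares lie left of 0, and 45 of the 48 circles lie right of it.

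With AM21, the median change was 3.70 against 2.66 in the pair-fed pools and 2.25 against 1.69 in the ethanol-fed pools. The change was larger with AM21 than without in both diets for 45 of 48, all but Incenp, Ckap2l and Foxm1, and for 23.8% of all genes. The fitted difference in change, AM21 minus untreated, was positive for all 48, from 0.02 to 1.44 with a median of 0.76. Limma called 0 of 48 (0% of all genes), and at an unadjusted p under 0.05 it called 28 higher and 0 lower, against 3.14% and 2.80%. The prior that follows the mean level called 6 of 48 (0.198%). Without the pair-fed AM21 pool the median difference was -0.01, and without the ethanol-fed untreated pool it was 0.24, in fits that mix diet with AM21. The median was 1.27 without the pair-fed untreated pool and 1.47 without the ethanol-fed AM21 pool.

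The smallest p-values for AM21 belonged to Aspm, Ndc80, Ckap2, Top2a and Aurkb, each with an adjusted p of 0.578. Aspm changed by 1.90, 3.25, 0.98 and 2.32 in the 4 pools, a difference of 1.35 ± 0.24. Ndc80 changed by 2.94, 4.64, 1.57 and 2.68, a difference of 1.41 ± 0.26. In both genes each AM21 pool changed more than the untreated pool of its diet. Ckap2 differed by 1.44 ± 0.28 and Top2a by 1.27 ± 0.26. With 1 pool left out, the difference ran from 0.10 (without the ethanol-fed untreated pool) to 2.77 for Ckap2, and from 0.17 (without the pair-fed AM21 pool) to 2.37 for Top2a. It ran from 0.43 to 2.39 for Ndc80, from 0.88 to 1.81 for Aspm and from 0.71 to 1.72 for Aurkb. Fits of 3 pools mix diet with AM21. These 5 genes were picked by their p-values in this same comparison, so a kept sign is no check of the difference. Aurkb changed by 2.11, 3.58, 1.63 and 2.58, a difference of 1.22 ± 0.26. In Aspm and Aurkb, but not in the other 3, the ethanol-fed AM21 pool also changed more than the pair-fed untreated pool.

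At 0 h the median fitted difference, AM21 minus untreated, was -0.15, with 9 of 48 positive, and limma called 0 of 48 (0% of all genes), with 5 lower and 0 higher at an unadjusted p under 0.05, against 2.69% and 2.59%. With 1 array left out, the median was -0.33 without either pair-fed array and -0.11 without either ethanol-fed array. Both AM21 arrays were below the untreated array of their diet for 23 of the 48 (25.3% of all genes). As with diet, 30 of the 48 had no 0 h array above the olfactory receptor percentile. The largest 0 h differences were -0.80 ± 0.26 (adjusted p = 0.891) for Top2a, -0.76 ± 0.20 (adjusted p = 0.891) for Ndc80 and -0.64 ± 0.24 (adjusted p = 0.931) for Aurkb. At 24 h the fitted difference was positive for all 48, from 0.21 to 0.84 with a median of 0.54. Limma called 0 of 48 at 24 h (0%), and at an unadjusted p under 0.05 it called 24 higher and 0 lower, against 3.41% and 2.87%. AM21 was above untreated in both diets for 40 of 48 (24.2% of all genes); Melk, Incenp, Ttk, Kif15, Kif4a, Ckap2l, Top2a and Cdca2 did not follow. The largest 24 h differences were 0.84 ± 0.23 (adjusted p = 0.707) for Ect2, 0.81 ± 0.24 (adjusted p = 0.722) for Racgap1 and 0.81 ± 0.21 (adjusted p = 0.707) for Cenpf. Racgap1, which helps Ect2 to the central spindle, read 4.17, 3.97, 4.49 and 4.44 at 0 h and 6.49, 7.79, 6.16 and 6.49 at 24 h. The pair-fed AM21 array was the highest of the 4 at 24 h for all 48 genes, against 25.5% of all genes. The median difference at 24 h was 0.14 without either pair-fed array and 0.95 without either ethanol-fed array.

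Many other genes of cell division were called higher after PHx. Of 91 further mitosis genes with a probe set, limma called 60 higher and 0 lower, against 5.65% and 4.43% of all genes; 31 were not called. Their median was 1.23 and their lowest value -0.36, with 80 of 91 positive; Sgo2, which protects centromeric cohesion, rose by 3.37 ± 0.24, Esco2, a cohesin acetyltransferase, by 3.11 ± 0.31 and Knl1, the kinetochore scaffold, by 2.99 ± 0.28. Of 21 cyclin A and B, Cdk1 and regulator genes, 17 were called higher and 0 lower, and all 21 were positive, with a median of 1.31. Cdk1, the kinase of mitotic entry, rose by 3.60 ± 0.41, its partner Ccnb1 by 3.58 ± 0.51, Ube2c, a ubiquitin-conjugating enzyme of the anaphase promoting complex, by 2.93 ± 0.32 and Ccna2 by 2.80 ± 0.39. Of 44 DNA replication genes, 43 were called higher and 0 lower, and all 44 were positive, with a median of 1.77. Rrm2, a subunit of ribonucleotide reductase, rose by 3.50 ± 0.49, Gmnn (geminin) by 2.94 ± 0.23, Mcm6, a helicase subunit, by 2.89 ± 0.23 and Gins1 by 2.86 ± 0.25. The difference in change between diets had medians of -0.54, -0.67 and -0.70 in these 3 lists, against -1.24 for the 48 genes, and that for AM21 had medians of 0.28, 0.43 and 0.33, against 0.76. The lists hold genes of different level, were chosen with earlier results of these data known and are set side by side as a description.

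Markers of other liver cells were read on the same arrays. Neutrophil genes S100a8 and S100a9 rose after PHx by 3.09 ± 0.35 and 2.01 ± 0.31, 2 of 10 neutrophil markers called, and the summed level of the 10 went from 37.7 to 40.5 at 0 h to 42.7 to 47.7 at 24 h. Without S100a8 and S100a9 the other 8 summed to 28.5 to 30.7 at 0 h and 29.8 to 31.6 at 24 h, lower at 24 h in both AM21 pools, and the median change of the 10 was 0.09. Among 12 Kupffer cell and macrophage markers, 1 was called higher and 3 lower after PHx. Ethanol-fed livers read higher for all 12 of these at 0 h (median 0.43) and for the same 12 at 24 h (median 0.47). Limma called 0 at either time. At an unadjusted p under 0.05 it called 8 and 9 higher, against 5.82% and 3.45% of all genes. The 12 markers were read on the same pools and are not independent. Their summed level was 88.5 and 89.7 in the pair-fed pools and 94.8 and 94.5 in the ethanol-fed pools at 0 h, and 89.1 and 86.5 against 95.1 and 93.0 at 24 h. Of 11 lymphocyte markers 4 were called lower, of 11 stellate cell and fibroblast markers 2 higher and 3 lower, of 8 sinusoidal endothelial markers 3 lower, and of 8 cholangiocyte and 5 erythroid markers 0, with 2 and 1 at an unadjusted p under 0.05. Over all genes, 5.65% were called higher and 4.43% lower after PHx, and 12.4% and 11.9% at an unadjusted p under 0.05. For the difference in change with AM21, all 10 neutrophil markers were negative (median -0.36, lowest -1.52) and 11 of 12 macrophage markers were negative (median -0.29). Limma called 0 of either, with 3 and 0 at an unadjusted p under 0.05, against 2.80% of all genes lower. Over all 18166 genes, 8559 were positive. Of the 10 neutrophil markers, at most 1 lay above the olfactory receptor percentile on any array at 0 h, and 2 did at 24 h. Most of their signs thus come from readings not above background. The part of these cells in the changes of the mitosis genes was not tested.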

How the data were processed

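Total RNA was pooled, amplified and biotin-labelled as cDNA, and hybridised to 8 Affymetrix arrays, per the labels' protocols. The deposited values are log2 levels, and per the submitters' processing notes the authors made them in Affymetrix Expression Console by RMA, which corrects background, normalizes the arrays together and summarises the probes of a set; no version is stated in the sources used here. The base of the logarithm was taken from the range of the values, 0.481 to 13.3. RMA brings the distributions of the arrays together (medians 4.11 to 4.23), and would hide a change common to most genes. There is no sequencing depth, and precision is limited by the 4 pools.

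Probe sets were named from the platform annotation: of 36685, 18511 carry 1 symbol, 575 several and 17599 none here. Where a gene had several, the brightest by its mean over 8 arrays was used, which left 18166 genes. All were tested, with no filter on level, because a filter would keep members through their high arrays. Tests used limma 3.58.1 (lmFit, eBayes) in R 4.3.3, with Benjamini-Hochberg adjustment over the 18166 genes and a threshold of 0.05. The change after PHx had the pool as a fixed block; pairing comes from the animal identifiers in the labels. The differences in change came from 1 fit with the pool as a block and both the diet and the AM21 interaction, which leaves 1 residual degree of freedom among the pools before limma shares variance over genes. Differences at 1 time came from 1 fit of all 8 arrays with diet and AM21 within each time. The code was tested on simulated data. Alternatives were 2 filters on level, the mean of probe sets, 2 scalings, 2 other priors, no block, fewer terms or arrays in the fit, and each pool or array left out.

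The members and all lists were chosen with earlier results of these data known. Genes described in detail were fixed by role, plus the 3 largest and 3 smallest rises, the 5 smallest p-values for each difference in change, the 3 largest differences at each time, and up to 4 of the largest changes of each other list, of which 1 is not reported here. Promoters are RefSeq sequences of GRCr8, shown for the 4 largest rises with both motifs. The array's own build was not matched to that assembly.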

Additional observations from a re-analysis of the deposited data

How the results depend on the processing

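Alternative filters and priors changed the count of mitosis genes called from 0 in 3 comparisons. For the difference in change between diets, 0 became 14 with a mean level of at least 5 (46 genes called in all), 19 with at least 4 (62) and 33 with a prior variance that follows the mean level (267). That prior also gave 6 for the difference in change with AM21 (67 genes called in all) and 5 for the diets at 0 h. Filters also test fewer genes. The cause of these changes in count was not tested. No direction of a median reversed under a filter, a scaling or a prior. The count after PHx was 48 under each alternative that kept all 48 genes and all 4 pools. A mean level of at least 4 was among these, but it kept genes dim at 0 h through their 24 h arrays. A mean level of at least 5 kept 39 genes, most of them through their 24 h arrays. The counts under both filters are thus no check of the change after PHx or of the difference in that change between diets. With the fit that has no replicate block for the matched pools, 48 of 48 rose and 2136 genes were called, against 1831 with it, and the counts for both differences in change stayed at 0. With 1 pool left out, the count after PHx ran from 47 to 48, and the medians of the differences in change ran from -1.59 to -0.83 for diet and from -0.01 to 1.47 for AM21. With 1 array left out, medians ran from 0.31 to 0.65 for diet at 0 h, from -1.12 to -0.39 for diet at 24 h, from -0.33 to -0.11 for AM21 at 0 h and from 0.14 to 0.95 for AM21 at 24 h, with 0 genes of the 48 called each time.

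Each combination of diet, treatment and time is 1 array of pooled RNA, so the spread between animals is unknown. At 0 h, 30 of the 48 genes lay above the 95th percentile of olfactory receptor genes on no array, which limits what differences at 0 h can show.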
